A study of Mus musculus with 3 samples.

Results

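The sarcomere, Z-disc and M-band genes described here are 40 genes of the contractile apparatus of heart muscle. They were chosen by gene symbol, and each was followed through the deposited transcript annotation to the locus that carries its RefSeq-matched transcripts. The 40 genes lie in 39 loci, since Myh6 and Myh7 share 1, out of 48626 loci in the whole series and 20117 loci with a RefSeq protein-coding transcript (mRNA loci). All 39 loci are among the 12569 mRNA loci that reached 1 FPKM in some library, FPKM being the number of fragments scaled to transcript length and to the fragments mapped in the library. Where 3 FPKM values follow a name, they are those of the E10.5, E13.5 and adult libraries, in this order.

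The study sequenced RNA of the heart ventricle of C57BL/6 mice (C57BL/6 J in the study's methods) at the embryonic stages E10.5 and E13.5 (days after conception) and in adults of 8 weeks, to catalogue long non-coding RNAs of the developing heart. There is 1 paired-end library per stage, made from total RNA with a stranded kit, and no label names a treatment or an allele. How many hearts went into a library is not given in the sources used here. A difference between stages is therefore a difference between 2 libraries with no replicate check, and no test between stages was run.

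The sarcomere is the repeating unit of the myofibril. Actin-based thin filaments are anchored at the Z-disc, myosin-based thick filaments are tied together at the M-band, and titin spans from the Z-disc to the M-band. During heart development myofibrils are added and aligned, and several sarcomere proteins are replaced by adult forms from other genes or other splice products. Mutations in many of these genes cause cardiomyopathy.

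Changes are differences of log2(FPKM + 1), a scale on which low loci change less than their fold, and a locus is called higher or lower when that difference is 1 or more in size. The deposited values are shifted against each other. The median change of expressed mRNA loci was 0.17 from E10.5 to E13.5, -0.50 from E13.5 to the adult and -0.40 from E10.5 to the adult. Of 9 marker lists, the 7 cardiomyocyte genes that are no members summed to 7982, 11099.5 and 15582 FPKM, and none of them was at 0. They are Tnnt2, Tnnc1, Actc1, Myl3, Ryr2, Pln and Hspb7. Tnnt2, Tnnc1, Actc1 and Myl3 are sarcomere genes themselves, and Pln was at 505, 745 and 4551 FPKM. Scaling to these genes, as used below, sets the members against other heart muscle genes and does not correct for cell number. The 4 atrial genes, several of which the embryonic ventricle also expresses, summed to 6382, 6766 and 40.9 FPKM. The 5 smooth muscle genes summed to 1325, 1234 and 209 FPKM, though Myh11 among them was at 0.112, 0.893 and 18.1 FPKM. Sums in the same order were 54.4, 64.7 and 3.71 FPKM for fast skeletal muscle, 176, 109.6 and 201 for endothelium, 196, 342 and 466 for fibroblasts, 5701, 15521 and 24.4 for erythroid cells, 35.1, 56.1 and 299 for macrophages and 243, 285 and 3.27 for proliferation. In bulk tissue, a change in the number of cells of a type and a change in RNA per cell cannot be told apart.

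Between E10.5 and the adult, the members went in both directions. As deposited, the largest differences towards a higher adult value were those of Xirp2, Myom2, Cmya5, Nrap and Myoz2, and the largest towards a lower one those of Pdlim3, Pdlim7, Synpo2l and Trim55. By role, 5 of 11 Z-disc loci were higher and 4 lower, both M-band loci were higher, and 3 of 5 anchorage loci were higher. Of the 37 loci above 0 in both libraries, 18 were higher in the adult (48.6%), while 14.5% of all mRNA loci were. The loci lower in the adult numbered 6 of 37 (16.2%), beside 27.2% of all mRNA loci. The median change of the 37 loci was 0.82, against -0.40 for all mRNA loci. With libraries scaled by median-of-ratios factors, 20 loci were higher and 4 lower, beside 19.8% and 18.2% of all mRNA loci, and Palld and Tpm4 were no longer among the lower loci. Scaled instead to the 7 cardiomyocyte genes, the median change was -0.54, with 9 loci higher and 17 lower. This scaling divides the E10.5 values by 0.7 and the adult values by 1.81, which lowers every mRNA locus towards the adult. The median and shares of all mRNA loci were not worked out in that setting, so these counts stand without a background. The 11 loci that were lower in that setting and not as deposited were Flnc, Mybpc3, Nebl, Smyd1, Smyd2, Synm, Tmod1, Tpm2, Tpm3, Unc45b and Xirp1, with changes between -2.20 (Flnc) and -1.14 (Mybpc3). At a stricter limit of 2 on the deposited values, 11 loci were higher and 2 lower (Pdlim3 and Pdlim7), beside 5.56% and 7.98% of all mRNA loci.

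**Figure D1:**
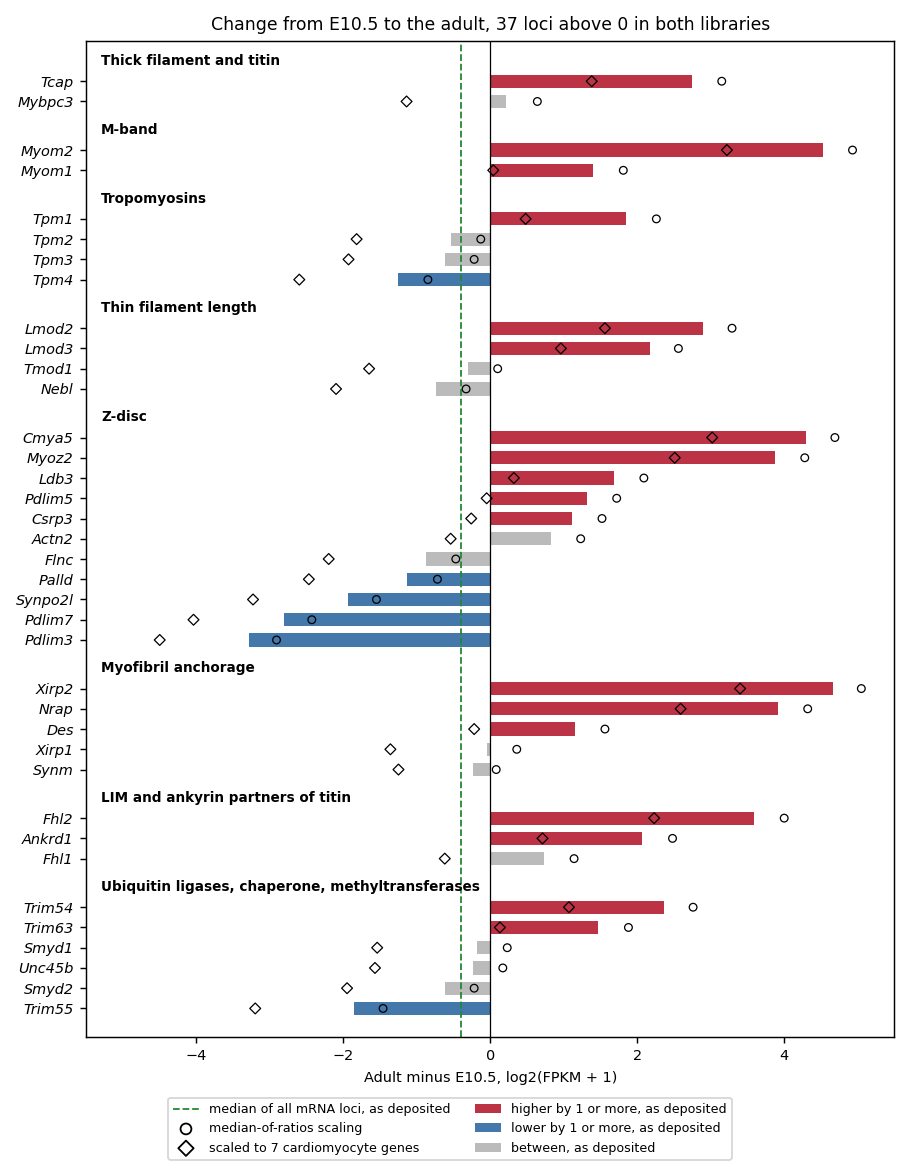
Change from E10.5 to the adult of the 37 loci above 0 in both libraries, as log2(FPKM + 1), grouped by role. Bars show the deposited values (red higher by 1 or more, blue lower by 1 or more, grey between), circles the values with median-of-ratios scaling and diamonds those scaled to 7 cardiomyocyte genes. The dashed line is the median of all mRNA loci as deposited, -0.40, and is no reference for the circles or diamonds. Bars run from -3.28 for Pdlim3 to 4.66 for Xirp2, and the diamonds of Csrp3, Des and Pdlim5 lie left of 0 while their bars lie right of it.

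The 9 loci that stayed higher by 1 or more when scaled to cardiomyocyte genes were Xirp2, Myom2, Cmya5, Nrap, Myoz2, Fhl2, Lmod2, Tcap and Trim54. Xirp2, an actin-binding Xin repeat protein of the intercalated disc, had the largest change of the 37 loci as deposited. It was at 3.54, 0.194 and 114 FPKM, in the adult 32.2-fold above E10.5 (95% counting interval 29.6 to 34.9, from the approximate depth and covering counting error alone). The adult value was far above both embryonic values, and scaled to cardiomyocyte genes the change was 3.40 on the log2 scale. At the other end, Pdlim3, a PDZ and LIM domain protein that binds α-actinin, was at 71.1, 247 and 6.41 FPKM, in the adult 11.1-fold lower than at E10.5. The related Pdlim7 was at 59.2, 105.0 and 7.60 FPKM, 7.79-fold lower.

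The 250 bases before the RefSeq start sites were searched for 6 motifs that are known from muscle promoters. The CArG box and the MEF2 box were searched by their consensus on both strands. The MCAT motif was searched as CATTCC. The motif bound by the factors of the GATA family was searched as AGATAA. The muscle form of the E-box was searched as CAGCTG. The box near the start site that binds the TATA-binding protein was searched as TATAAA, and these were also searched on both strands. RefSeq promoters were found for 35 of the 40 genes (49 start sites), and those of Trim55, Lmod3, Xirp1, Tcap and Myom2 were not. A CArG box lay before 5 genes (14.3%), namely Fhl1, Fhl2, Ldb3, Myom1 and Nebl, beside 1.48% of the 9332 genes of expressed mRNA loci and 1.62% of all 27025 genes with a promoter. A MEF2 box lay before 6 genes (17.1%), namely Fhl2, Mybpc3, Myoz2, Synpo2l, Ttn and Xirp2, beside 2.22% and 3.42%. The shares of genes with the shorter motifs were 31.4% for MCAT (13.2% of expressed genes and 14.4% of all), 31.4% for the E-box (14.7% and 14.7%), 17.1% for GATA (7.36% and 11.4%) and 17.1% for TATAAA (8.24% and 14.3%). Counted per start site instead, TATAAA lay before 12.2% of those of the members, beside 6.72% for expressed genes and 12.4% for all. Each of the other motifs stayed above both shares. At least 1 motif was found for 27 genes and none for 8, but the share of all genes with at least 1 motif was not worked out. Of the 35 genes, 11 have more than 1 start site, and a MEF2 box before Fhl2 overlaps its TATA box, so matches are not independent of each other. A match describes the letters of the window and not a bound site. Whether transcription begins at each RefSeq start site, such as those of the Nebl CArG box and the Pdlim5 TATAAA, was not checked.

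Windows are shown for the member with the highest change (Xirp2), those with the lowest (Pdlim3 and Pdlim7) and a pair of related genes, Fhl1 and Fhl2, that differ in it. They are from RefSeq on GRCm38.p6, 5′ to 3′ on the strand of the gene, with motif matches in capitals. Bases that the deposited or RefSeq annotation puts in an exon were left out (31 for Xirp2, 181 for Pdlim3 and 27 for Pdlim7). Xirp2 (chr2:67445752-67445970, plus strand) holds a MEF2 box from 65 to 74 bases before the start. Pdlim3 (chr8:45885237-45885305, plus strand) holds MCAT in the stretch shown, and another MCAT and an E-box in the part left out. A window of Fhl2 (chr1:43163962-43164211, minus strand) holds a CArG box from 22 to 31 bases before the start. Another Fhl2 window (chr1:43196762-43197011), not shown because annotated exon bases begin near its far end, holds CArG, MEF2, GATA and TATA matches. A window of Fhl1 (chrX:56779433-56779682, plus strand) holds a CArG box from 93 to 102 bases before the start and a reversed TATAAA. Another Fhl1 window (chrX:56786277-56786526), not shown, holds none of the 6 motifs. Pdlim7 (chr13:55513474-55513696, minus strand) holds none of the 6 motifs.
Xirp2: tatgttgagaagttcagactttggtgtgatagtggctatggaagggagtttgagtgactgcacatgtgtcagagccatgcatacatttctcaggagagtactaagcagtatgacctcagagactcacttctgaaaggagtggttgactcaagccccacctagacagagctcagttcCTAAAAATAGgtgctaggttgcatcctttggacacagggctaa
Pdlim3: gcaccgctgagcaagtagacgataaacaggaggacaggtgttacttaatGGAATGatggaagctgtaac
Fhl2: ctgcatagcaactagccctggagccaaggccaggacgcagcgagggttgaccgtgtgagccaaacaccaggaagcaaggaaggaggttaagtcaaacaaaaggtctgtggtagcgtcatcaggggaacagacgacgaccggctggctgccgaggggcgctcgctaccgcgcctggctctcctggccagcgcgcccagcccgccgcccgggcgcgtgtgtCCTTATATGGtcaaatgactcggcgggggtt
Fhl1: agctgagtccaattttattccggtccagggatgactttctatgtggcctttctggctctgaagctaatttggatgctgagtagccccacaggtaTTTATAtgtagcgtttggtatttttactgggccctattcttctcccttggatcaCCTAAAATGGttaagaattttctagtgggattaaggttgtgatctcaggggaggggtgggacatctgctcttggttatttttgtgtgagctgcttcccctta
Pdlim7: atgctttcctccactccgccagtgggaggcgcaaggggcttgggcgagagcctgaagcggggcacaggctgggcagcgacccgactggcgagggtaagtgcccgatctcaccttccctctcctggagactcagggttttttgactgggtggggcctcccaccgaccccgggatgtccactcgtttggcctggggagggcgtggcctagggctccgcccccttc

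Levels in each library are given next, role by role, beginning with the thick filament and titin. The α and β myosin heavy chain genes Myh6 and Myh7, the motors of the thick filament, lie next to each other on chromosome 14 and were joined in 1 locus (54937316 to 54994602, minus strand) of 12 transcripts. This locus was at 1029 FPKM in E10.5 and 1329 in E13.5 and was listed at 0 in the adult. Ttn, which encodes titin (chromosome 2, 76703384 to 76983691, minus strand, up to 313 exons), was at 428 FPKM in E10.5 and 46.8 in E13.5 and was also listed at 0 in the adult. Adult mouse cardiomyocytes need both titin and the myosin of Myh6, and in the adult library 81 mRNA loci in all were listed at 0. These zeros are given without a fold and are in no count of changes that involves the adult. Tcap, telethonin, which caps the Z-disc end of titin, was at 66.2, 88.0 and 448 FPKM. The adult value of Tcap was 6.76-fold that of E10.5, and its locus (chromosome 11, 98383268 to 98388186) also holds transcripts of Pnmt. Mybpc3, cardiac myosin-binding protein C, was at 245, 383 and 286 FPKM, and none of its 3 differences reached 1 as deposited (0.65, -0.42 and 0.22).

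**Figure D2:**
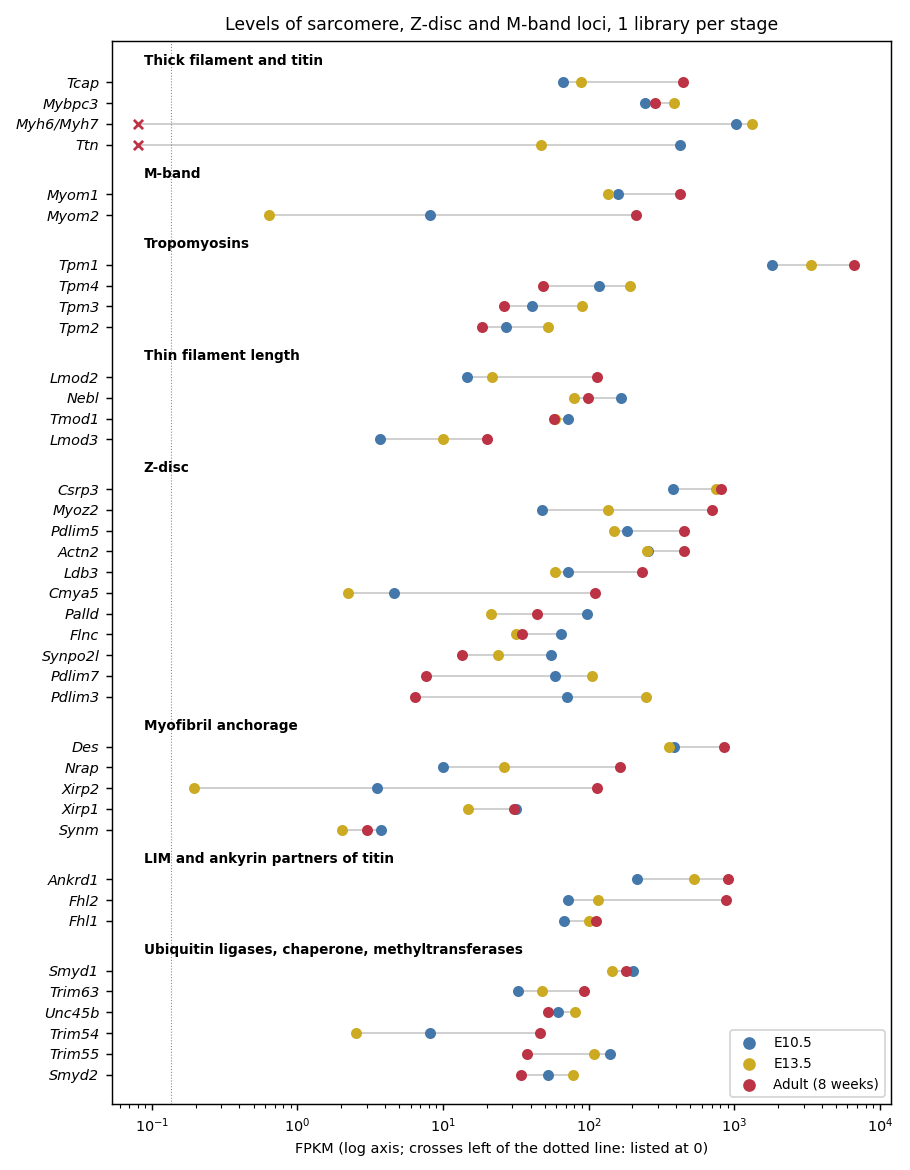
FPKM of the 39 loci in each library on a log axis, grouped by role, with 1 point per stage (blue E10.5, yellow E13.5, red adult at 8 weeks). Crosses left of the dotted line are values listed at 0, which are Myh6/Myh7 and Ttn in the adult. Tpm1 is the highest locus at every stage, from 1828 to 6601 FPKM, and the widest spread is that of Xirp2, from 0.194 to 114 FPKM.

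Both M-band genes were higher in the adult than at E10.5, Myom2 by far the more. Myom1, myomesin, which crosslinks thick filaments at the M-band, was at 159, 136 and 422 FPKM, and its adult value lay 1.40 above E10.5 on the log2 scale, or 0.04 when scaled to cardiomyocyte genes. Myom2, the M-protein (chromosome 8, 15057653 to 15133419, plus strand), was at 8.20, 0.636 and 212 FPKM, 25.8-fold higher in the adult than at E10.5 (counting interval 23.7 to 28.1). Myom2 made up 4.90%, 0.466% and 33.4% of the summed FPKM of the pair by stage. The low E13.5 value rests on about 84 fragments, and that of Xirp2 on about 62, the fewest of any member.

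The tropomyosins, which run along the thin filament and gate the access of myosin to actin, came close to a single gene in the adult. Tpm1, the main tropomyosin of the mouse heart, was at 1828, 3343 and 6601 FPKM, and ranked 11, 6 and 3 among all expressed mRNA loci. From E10.5 to the adult Tpm1 changed by 1.85 as deposited and by 0.48 when scaled to cardiomyocyte genes. Its share of the 4 tropomyosins was 90.8%, 90.9% and 98.6%, a measure that does not depend on how libraries are scaled. Tpm4 was at 118, 191 and 48.6 FPKM, and its share went from 5.84% and 5.20% to 0.725%. Tpm3 was at 40.7, 89.6 and 26.1 FPKM and Tpm2 at 27.1, 52.3 and 18.5. All 3 minor tropomyosins had their highest value at E13.5 and their lowest in the adult. Tpm2, Tpm3 and Tpm4 were lower in the adult than at E13.5 (changes of -1.45, -1.74 and -1.95), although Tpm2 was at -0.90 with median-of-ratios scaling. The locus of Tpm3 also holds transcripts of Nup210l, and without it the share of Tpm1 was 92.7%, 93.2% and 99.0%. Tpm3 and Tpm4 also encode cytoskeletal tropomyosins of non-muscle cells, and the smooth muscle marker sum was lower in the adult as well, from 1325 to 209 FPKM, a part in the result that was not tested.

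Among the genes that set thin filament length, the leiomodins were higher in the adult and the capping protein was not. Lmod2, a leiomodin that elongates thin filaments at their pointed ends, was at 14.6, 21.8 and 115 FPKM, in the adult 7.85-fold above E10.5. Lmod3, a leiomodin with the same activity, was at 3.68, 9.99 and 20.2 FPKM, in the adult 5.48-fold above E10.5. Both had their lowest value at E10.5 and their highest in the adult, and the change of Lmod3 was just under 1 (0.96) when scaled to cardiomyocyte genes. Tmod1, tropomodulin, which caps the same filament ends, was at 72.0, 58.8 and 58.0 FPKM, with no difference of 1 as deposited, while its adult value lay -1.65 from E10.5 when scaled to cardiomyocyte genes. Nebl, nebulette, a small relative of nebulin at the Z-disc, was at 167, 79.1 and 99.3 FPKM and was lower at E13.5 than at E10.5 (-1.07). Its RefSeq-matched transcript in the deposited annotation has 7 exons and the assembled transcripts up to 28, so the FPKM pools forms of different length.

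The 11 Z-disc loci went in different directions. Between E10.5 and the adult 5 were higher, 4 were lower and 2 lay between. Myoz2, calsarcin, which ties calcineurin to α-actinin, was at 47.6, 135 and 708 FPKM, in the adult 14.9-fold above E10.5 and higher at each step. Cmya5, myospryn, was at 4.64, 2.24 and 110.2 FPKM, in the adult 23.7-fold above E10.5. Ldb3, the PDZ and LIM protein Cypher, was at 71.7, 59.0 and 232 FPKM, a change of 1.68 that was 0.32 when scaled to cardiomyocyte genes. These 3 had their highest value in the adult, and only Myoz2 was higher at E13.5 than at E10.5 by the limit of 1.

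Csrp3, the muscle LIM protein, was at 378, 756 and 816 FPKM, so as deposited most of its difference lay between the embryonic libraries, while relative to loci of like length the steps were 0.46 and 1.03. Pdlim5, a PDZ and LIM protein of the Z-disc, was at 182, 149 and 454 FPKM. The changes of Csrp3 and Pdlim5 from E10.5 to the adult were 1.11 and 1.31 as deposited and turned to -0.26 and -0.05 when scaled to cardiomyocyte genes. Actn2, the sarcomeric α-actinin that crosslinks thin filaments at the Z-disc, was at 256, 252 and 453 FPKM, a change of 0.82 that counted as higher with median-of-ratios scaling (1.23) and turned to -0.54 when scaled to cardiomyocyte genes.

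The 4 Z-disc loci with a lower adult value were Pdlim3, Pdlim7, Synpo2l and Palld. Synpo2l, an actin and α-actinin binding protein of the synaptopodin family, was at 54.8, 23.9 and 13.505 FPKM, 4.05-fold below E10.5 in the adult. Palld, palladin, an actin-bundling protein also found in stress fibres, was at 97.1, 21.5 and 43.9 FPKM, lowest at E13.5. Flnc, filamin C, an actin crosslinker, was at 64.8, 32.0 and 34.9 FPKM, with an adult value at -0.87 from E10.5. Pdlim3, Pdlim7, Synpo2l and Palld were lower under each of the scalings tried, by less than 1 for Palld with median-of-ratios scaling (-0.72). Of the 5 smooth muscle markers, Cnn1, Tagln and Acta2 were also below their E10.5 level in the adult (87.3 to 2.87, 134 to 41.6 and 1089.5 to 124 FPKM), Smtn was at 14.6 and 21.9 FPKM, and Myh11 went the other way (0.112 to 18.1 FPKM). The part of smooth muscle cells in these 4 changes was not tested.

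The genes that anchor myofibrils to each other and to the intercalated disc held some of the largest differences. Des, desmin, the intermediate filament protein of muscle, was at 385, 359 and 855 FPKM, with an adult value 1.15 above E10.5 on the log2 scale, which turned to -0.22 when scaled to cardiomyocyte genes. Nrap, an actin-binding LIM protein of myofibril precursors and of the intercalated disc, was at 10.03, 26.4 and 165 FPKM, in the adult 16.5-fold above E10.5 and higher at each step. Xirp1, the other Xin repeat protein, was at 31.7, 14.9 and 30.8 FPKM, nearly equal in E10.5 and the adult as deposited, and at -1.36 in the adult when scaled to cardiomyocyte genes. Xirp2 thus went from 10.1% of the summed FPKM of the Xin pair at E10.5 and 1.29% at E13.5 to 78.7% in the adult. Synm, synemin, an intermediate filament partner of desmin, was low in every library at 3.72, 2.02 and 2.995 FPKM, with no difference of 1 as deposited (-1.25 from E10.5 to the adult when scaled to cardiomyocyte genes).

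Of the partners of the titin spring, Ankrd1 and Fhl2 were higher in the adult, and Fhl1 stayed under the limit as deposited. Ankrd1, a cardiac ankyrin repeat protein, was at 214, 532 and 901 FPKM, in the adult 4.22-fold above E10.5. That change was 2.07 as deposited and 0.71 when scaled to cardiomyocyte genes. Fhl2, a protein of LIM domains, was at 71.8, 116 and 877 FPKM, in the adult 12.2-fold above E10.5. Fhl1, its relative, was at 67.4, 101 and 112 FPKM, a change of 0.73 that counted as higher with median-of-ratios scaling (1.14) and turned to -0.62 when scaled to cardiomyocyte genes. Fhl1 and Fhl2 were thus close at E10.5 (48.4% and 51.6% of their sum), while Fhl2 made up 88.6% of it in the adult.

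Of the 6 genes of protein turnover and folding in the sarcomere, 2 were higher in the adult than at E10.5, 1 was lower and 3 lay between. Trim63, Trim55 and Trim54 encode the ubiquitin ligases MuRF1, MuRF2 and MuRF3, which bind titin and microtubules. Trim55 was at 141, 108 and 38.0 FPKM, in the adult 3.71-fold below E10.5. Trim63 was at 32.9, 48.1 and 93.3 FPKM and Trim54 at 8.19, 2.53 and 46.3. From E10.5 to the adult Trim63 changed by 1.47 as deposited, but by 0.13 when scaled to cardiomyocyte genes. The summed FPKM of the 3 ligases stayed between 159 and 182, while the share of Trim55 went from 77.4% to 21.4% and that of Trim63 from 18.1% to 52.5% between E10.5 and the adult. Smyd1, a muscle lysine methyltransferase that acts in thick filament assembly, was at 203, 145 and 179.6 FPKM. Unc45b, the myosin chaperone, was at 61.5, 80.7 and 52.2 FPKM, and Smyd2, another lysine methyltransferase, at 52.9, 78.7 and 34.1. As deposited, neither Smyd1 nor Unc45b differed by 1 between any pair of libraries, but scaled to cardiomyocyte genes their changes from E10.5 to the adult were -1.54 and -1.57. Smyd2 was lower in the adult than at E13.5 (-1.18, and -0.62 with median-of-ratios scaling).

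**Figure D3:**
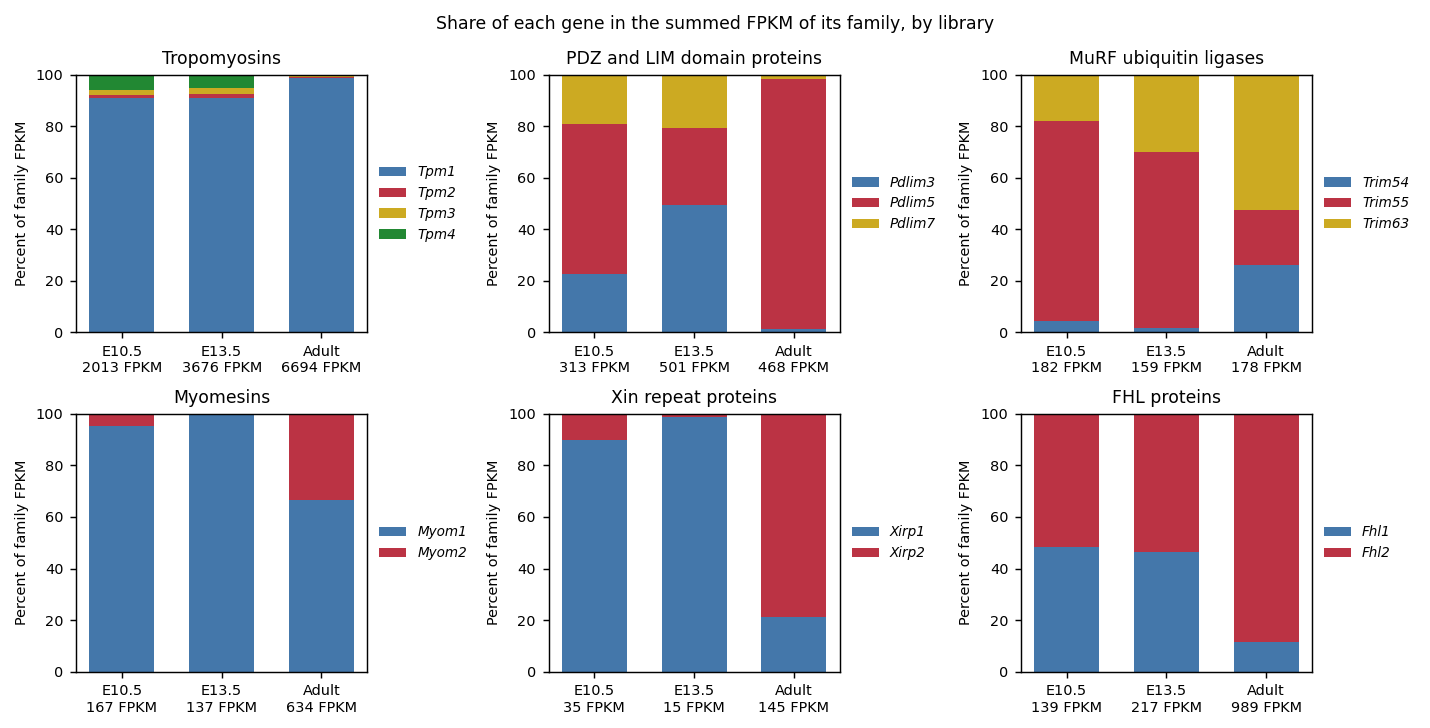
Share of each gene in the summed FPKM of 6 families, in percent, with 1 bar per library and the family sum under it. Tpm1 holds 98.6% of the tropomyosin sum in the adult. Pdlim5 holds 97.0% of the sum of Pdlim3, Pdlim5 and Pdlim7, which leaves out Ldb3 and other PDZ and LIM genes. Fhl2 holds 88.6% of the sum of Fhl1 and Fhl2. Trim55 is the largest part of the ligase sum in both embryonic libraries and Trim63 in the adult.

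Shares within families do not depend on the scaling of libraries, but they do depend on which genes are counted in a family. Pdlim5, Pdlim3 and Pdlim7 made up 58.3%, 22.7% and 18.9% of their summed 313 FPKM at E10.5. At E13.5 Pdlim3 was the largest with 49.4%, ahead of Pdlim5 at 29.7%. In the adult Pdlim5 held 97.0% of 468 FPKM, with 1.37% for Pdlim3 and 1.62% for Pdlim7. Other PDZ and LIM genes are not in this sum. Of these Ldb3 was at 232 FPKM in the adult, Pdlim1 at 14.1, Pdlim2 at 1.38 and Pdlim4 at 5.11. The leiomodin and methyltransferase pairs moved less, with Lmod2 at 79.9%, 68.6% and 85.1% and Smyd1 at 79.3%, 64.8% and 84.0% of their pairs. The 37 loci above 0 in all libraries together summed to 5321, 7851 and 14735 FPKM, or 1.60%, 1.89% and 4.46% of the FPKM of mRNA loci without globin and mitochondrial genes. Tpm1 carried much of this sum, and without it the shares were 1.05%, 1.08% and 2.46%.

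The E13.5 library stands apart by transcript length, which bears on every change to or from it. Over all mRNA loci the median change from E10.5 to E13.5 went from 0.57 for transcripts up to 1000 nt to -0.72 for those over 10000 nt. From E13.5 to the adult it went from -0.92 to 0.27, while between E10.5 and the adult these ends lay at -0.39 and -0.38. The 3 longest member loci, Ttn, Xirp2 and Cmya5, had changes of -3.16, -1.93 and -0.80 from E10.5 to E13.5. Taken relative to the median of the 200 mRNA loci nearest in length, these were -2.41 for Ttn, -1.27 for Xirp2 and -0.14 for Cmya5. Only 227 mRNA loci are over 10000 nt. The 200 nearest to Ttn, of 91802.5 nt, are thus most of these and not of like length, so its value is not corrected for its own length.

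**Figure D4:**
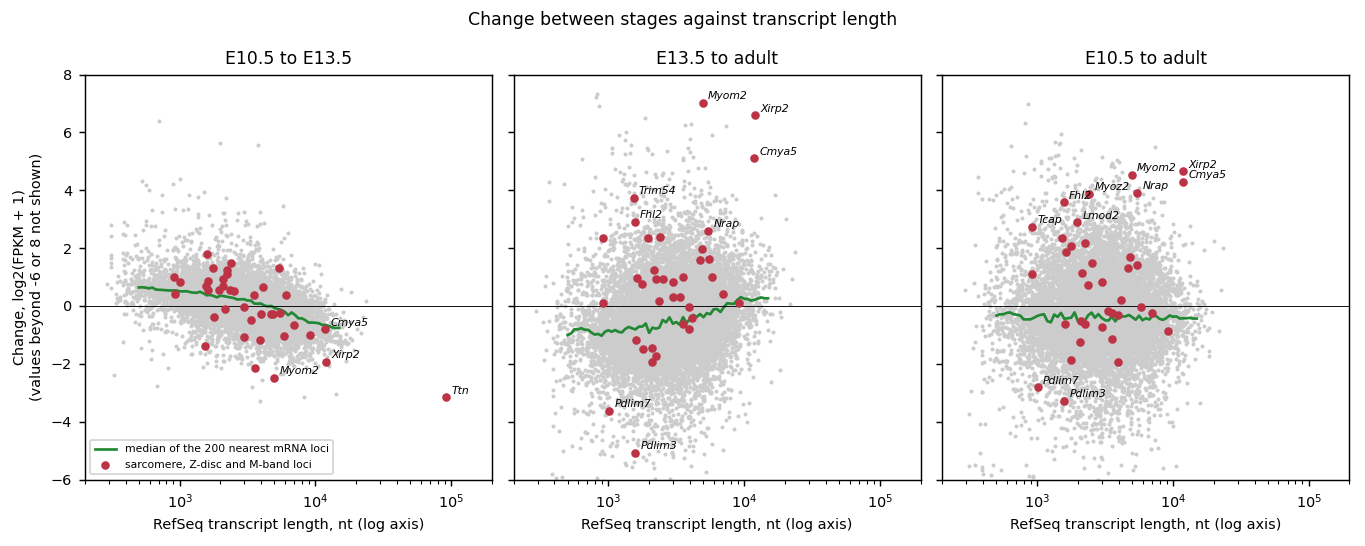
Change between libraries, as log2(FPKM + 1), against the length of the RefSeq transcript on a log axis, 1 panel per pair of stages. Grey points are mRNA loci, red points the members and the green line the median of the 200 mRNA loci nearest in length. The line falls with length from E10.5 to E13.5, rises from E13.5 to the adult and is flat from E10.5 to the adult. Ttn, the longest member, lies at -3.16 in the left panel.

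From E10.5 to E13.5, 6 of the 39 loci were higher by 1 or more, beside 5.79% of all mRNA loci, and 8 were lower, beside 4.84%. The 6 were Pdlim3 (1.79), Myoz2 (1.48), Nrap (1.31), Ankrd1 (1.31), Lmod3 (1.23) and Tpm3 (1.12). The 8 were Ttn (-3.16), Myom2 (-2.49), Palld (-2.13), Xirp2 (-1.93), Trim54 (-1.38), Synpo2l (-1.16), Nebl (-1.07) and Xirp1 (-1.04). At the limit of 2, none was higher and Ttn, Myom2 and Palld were lower, beside 0.833% and 0.232%. The median change of the 39 loci was 0.37, beside 0.17 for all mRNA loci, and it turned to -0.10 relative to loci of like length. In that setting, which was chosen after the values were seen, 3 loci were higher (Pdlim3, Nrap and Myoz2, with 3.33% of mRNA loci) and 7 lower (4.67%). Of the 8 lower loci, 7 were still called and Xirp1 was not, with the limit on Ttn given above. Palld and Myom2, of 3566 and 4953 nt, were at -2.20 and -2.45 relative to loci of like length.

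From E13.5 to the adult, 14 of the 37 loci were higher, beside 12.9% of all mRNA loci, and 7 were lower, beside 31.8%. The higher loci led with Myom2 (7.02), Xirp2 (6.59), Cmya5 (5.10), Trim54 (3.74) and Fhl2 (2.91), and the lower loci were Pdlim3 (-5.07), Pdlim7 (-3.62), Tpm4 (-1.95), Tpm3 (-1.74), Trim55 (-1.49), Tpm2 (-1.45) and Smyd2 (-1.18). The median change was 0.84, beside -0.50 for all mRNA loci, and it was 1.39 relative to loci of like length. Scaled to cardiomyocyte genes, which lowers every locus towards the adult, it turned to -0.34. The median of all mRNA loci in that setting was not worked out. With median-of-ratios scaling 20 loci were higher and 4 lower, beside 20.8% and 18.6%. Relative to loci of like length, 21 loci were higher and Pdlim3, Pdlim7 and Tpm4 were lower, beside 20.4% and 16.6% of mRNA loci. At the limit of 2, 9 loci were higher and 2 lower, beside 4.34% and 9.76%. Myom2, Xirp2, Cmya5 and Trim54 were below their E10.5 level at E13.5, so their difference from E13.5 to the adult is larger than that from E10.5.

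Another 51 sarcomere genes that are no members were described in the same way. From E10.5 to the adult, 12 of the 48 loci measured were higher and 16 lower, beside 14.5% and 27.2% of all mRNA loci. Both counts were above these shares, while the median of -0.34 was near the -0.40 of all mRNA loci. By role, 3 of 13 loci for thin filament and light chains were higher and 7 lower, with Tnni1, the troponin I of embryonic heart and slow muscle, at 2425, 2289 and 0.737 FPKM. For the thick filament and M-band 3 of 8 were higher and 2 lower. For the Z-disc and thin filament length 5 of 21 were higher and 6 lower. Myot and Mypn, myotilin and myopalladin, which bind α-actinin, were at 1.52, 0.0721 and 24.5 FPKM and at 2.10, 1.21 and 21.3 FPKM, while Csrp2, a LIM protein related to Csrp3, was at 134, 287 and 13.6. Intermediate filaments and costameres had 1 of 6 higher, Dmd, dystrophin, at 11.2, 11.7 and 53.8 FPKM, and 1 lower, Vim, the vimentin of non-muscle cells, at 595, 965 and 101.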

How the data were processed

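RNA of heart ventricle was measured in 3 libraries, 1 per stage (E10.5, E13.5, adult), grouped by the stage in the labels. Per the study's methods and the submitters' processing notes, the authors aligned reads to mm10 (GRCm38) with Tophat2 and Bowtie and ran Cufflinks both with the UCSC annotation and without it, and they deposited FPKM values per merged locus. Exact versions, other options and the handling of fragments that map to several places are not given in the sources used here. FPKM can be listed at 0 where an estimate failed, so such loci were left out of changes.

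Loci were kept that reached 1 FPKM in any library. Changes are differences of log2(FPKM + 1) with a pseudocount of 1. A locus was called at a difference of 1 or more, since 1 library per stage allows no test. FPKM holds no counts, so depth was read from the spacing of the smallest values, with about 13.8 (E10.5), 26.7 (E13.5) and 13.8 (adult) fragments per FPKM and kb. Counting intervals (95%) rest on this approximate depth. All 40 members are named, and other genes only as members of lists. Members and lists were chosen with earlier results of these data known. Alternatives changed the scaling, pseudocount, filter, locus choice, zeros, threshold and a centring on length. The change calculation was tested on simulated data. Python 3.11.15, numpy 2.4.6, pandas 2.3.3, scipy 1.17.1 and matplotlib 3.10.9 were used.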

Additional observations from a re-analysis of the deposited data

Results flagged for a closer look

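A second locus carries the name of Synm, a transcript on the plus strand (chromosome 7, 67726696 to 67730228, 3533 nt) that overlaps the 3′ end of the Synm locus on the opposite strand. It is in none of the comparisons above, and its level was above what 3 fragments allow (0.062, 0.032 and 0.062 FPKM) in all 3 libraries. Its E10.5, E13.5 and adult values were 2.06, 2.29 and 1.59 FPKM, beside 3.72, 2.02 and 2.995 FPKM for Synm itself. The kit keeps the strand of the RNA, but how strand was used in the assembly is not given in the sources used here.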

How the results depend on the processing

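No paired analysis was possible because there is only 1 library per stage and nothing to pair. The largest dependence was on the scaling. Of the 7 cardiomyocyte genes, 4 were higher in the adult than at E10.5 as deposited, and 4 than at E13.5, with none lower. Scaling to them therefore lowers every locus towards the adult, members and other mRNA loci alike. No median or share over all mRNA loci was worked out for it. With libraries scaled to the 7 cardiomyocyte genes, the median change of the members turned to -0.34 from E13.5 to the adult (9 higher and 14 lower) and to -0.54 from E10.5 to the adult (9 higher, 17 lower), and of the called single changes 4 turned, those of Xirp1 from E13.5 to the adult (-0.14) and of Csrp3 (-0.26), Des (-0.22) and Pdlim5 (-0.05) from E10.5 to the adult. Single changes under the limit turned in that setting for another 12 loci from E13.5 to the adult and 3 from E10.5 to the adult (Actn2, Fhl1 and Mybpc3). Median-of-ratios scaling gave a median of 1.41 from E13.5 to the adult with 4 loci lower, and equal mRNA sums left 3 higher from E10.5 to E13.5. The median from E10.5 to E13.5 turned to -0.06 without joined loci and to -0.10 when centred on loci of like length, an alternative chosen after seeing the data, which also left 3 higher from E10.5 to E13.5 and, towards the adult, 3 lower than E13.5 with a median of 1.39. A pseudocount of 10 left 3 higher and 2 lower from E10.5 to E13.5. A threshold of 2 left 0 higher and 3 lower from E10.5 to E13.5, 9 and 2 from E13.5 to the adult, and 11 and 2 from E10.5 to the adult. Without joined loci the share of Tpm1 was 92.7%, 93.2% and 99.0% by stage, and that of Tpm4 at E13.5 was 5.33%. Of the 18 loci higher from E10.5 to the adult, all 18 were also called with median-of-ratios scaling, equal mRNA sums, either other pseudocount and the centring on length, and 9 with the cardiomyocyte scaling. The cause of these differences was not tested. The lowest values of members, Xirp2 and Myom2 at E13.5, rest on about 62 and 84 fragments. With 1 library per stage, the spread between animals is unknown for every value.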
